A study of Mus musculus with 2 samples.

Results

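The genes examined here encode the smooth-muscle type contractile apparatus of wound myofibroblasts and of mural cells, the pericytes and smooth muscle cells that wrap blood vessels. They were taken by symbol from the deposited gene table, and all 10 of 10 symbols (Acta2, Tagln, Cnn1, Myl9, Tpm1, Tpm2, Myh11, Actg2, Cald1 and Mylk) were found among 27998 genes, of which 19918 had a UMI in the cells kept. A UMI (unique molecular identifier) marks 1 captured transcript molecule at its 3' end, so levels are given as UMIs of a gene per 1000000 UMIs of a class of cells (CPM) and are not divided by gene length.

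In smooth muscle, force comes from myosin pulling on actin. Acta2 and Actg2 encode the smooth-muscle actins alpha and gamma, Myh11 the smooth-muscle myosin heavy chain and Myl9 a regulatory myosin light chain, which Mylk, the myosin light chain kinase, phosphorylates to start contraction. Tpm1 and Tpm2 encode tropomyosins, which lie along the actin filament, whereas Cald1 (caldesmon), Cnn1 (calponin) and Tagln (transgelin, also called SM22) encode actin-binding proteins that restrain or stabilize it. Fibroblasts that enter a wound switch on part of this set, Acta2 first among them, and are then called myofibroblasts. Serum response factor (SRF) and its cofactors drive many of these genes through a DNA motif named the CArG box.

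Single-cell RNA sequencing was performed by the authors on Tomato+ dermal cells sorted from mouse skin wounds. There was 1 control library (SM22rtTA; tetO-Cre; R26-Tomato) and 1 SM22-SmoM2 library (SM22rtTA; tetO-Cre; R26-SmoM2/Tomato), which also expresses SmoM2, a form of Smoothened that keeps Hedgehog (Hh) signaling on. The Tomato reporter is at the R26 locus in both. In both, the rtTA is driven by the SM22 promoter, that of Tagln, so that doxycycline turns on Cre, and with it Tomato, in cells in which this promoter is or was active. Mice of both groups were 4 to 5 weeks old, were fed doxycycline at 20 g/kg from day 1 after wounding on, and were sampled 3 days after complete re-epithelialization. Wounds of several mice were pooled into each library, so there was no replicate: no difference between the libraries can be tested, no p-value is given, and every 95% interval covers counting error only. What differs between the genotypes cannot be told apart from what differs between 2 libraries.

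After filtering, 2856 control cells and 1792 SM22-SmoM2 cells remained, with medians of 8607.5 and 8837.5 UMIs per cell. Cells were clustered without the contractile genes, and clusters were named only from marker lists that hold none of them. Fibroblast-like cells numbered 1045 in the control and 1098 in the SM22-SmoM2 library, and mural-like cells 259 and 93. The lineage that is called mural here was named from 12 markers, so their presence in it was given by the naming. In the control and SM22-SmoM2 they summed to 14910 and 14592 CPM in mural cells. In fibroblasts, where all 12 also had a UMI, they summed to 204 and 280 CPM. Rgs5 led them in mural cells, at 8647 CPM in the control and 8337 CPM in SM22-SmoM2. Of 7 skeletal muscle markers, Ckm, Acta1, Myh4, Pax7 and Myod1 were at 0 in the control mural cells and these and Tnnt3 in the SM22-SmoM2 ones, so that Des, which smooth muscle also expresses, was the member of that list detected in both. Endothelial-like, Schwann-like, immune-like and a few keratinocyte-like cells made up the other named lineages. A further cluster of 94 control and 45 SM22-SmoM2 cells carried mural and endothelial markers together, at medians of 15243 and 13081 UMIs per cell, and was kept apart as mixed.

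Promoter sequences are shown for Acta2 and Myl9 because they were the members whose windows held CArG-like motifs. RefSeq promoter windows of 300 bases (build GRCm38.p6) were at hand for 7 of the 10 genes, in 8 windows since Cald1 has a pair of starts. Each window holds 250 bases before its own start site and 50 from it on. For Acta2 and Myl9 that site lies inside the gene as placed by the GENCODE coordinates given below, so distances are counted from the site. Both windows are printed 5' to 3' on the strand of the gene, with CArG boxes in capitals, counting as such 10 bases with CC and GG around 6 core bases that are A or T, of which at most 1 may be G or C. The Acta2 window is chr19:34255324-34255623 on the minus strand, and that of Myl9 is chr2:156775214-156775513 on the plus strand.
Acta2: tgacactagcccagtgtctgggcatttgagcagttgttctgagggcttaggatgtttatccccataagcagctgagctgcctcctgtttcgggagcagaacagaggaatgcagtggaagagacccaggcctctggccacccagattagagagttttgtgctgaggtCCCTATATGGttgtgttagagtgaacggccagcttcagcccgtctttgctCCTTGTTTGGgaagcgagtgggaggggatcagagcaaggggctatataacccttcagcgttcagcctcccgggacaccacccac
Myl9: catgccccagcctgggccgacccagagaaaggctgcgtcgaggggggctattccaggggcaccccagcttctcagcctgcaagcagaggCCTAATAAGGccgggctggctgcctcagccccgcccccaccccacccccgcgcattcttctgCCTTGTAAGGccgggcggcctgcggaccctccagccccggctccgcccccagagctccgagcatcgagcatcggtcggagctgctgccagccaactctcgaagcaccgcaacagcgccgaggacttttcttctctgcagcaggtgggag

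The Myl9 window held the motif CCTAATAAGG, a full CArG box, starting 161 bases before the window's start site, and CCTTGTAAGG starting 99 bases before it. In the Acta2 window, CCCTATATGG and CCTTGTTTGG, each with 1 G or C in the core, started 84 and 34 bases before that window's start site. The box is its own reverse complement in form, so 1 search covers both strands, and none of these 4 motifs overlapped another. A full box was present in 1.63% of all 32851 mouse promoter windows and the looser one in 9.98%. The windows of Cnn1, Tpm1, Tpm2, Cald1 and Mylk held neither. GACCACCCA, the letters bound by the Hh effectors of the Gli family, was found on neither strand in any of the 8 windows and in 0.253% of all windows. A match is a description of letters and not of binding.

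In the GENCODE annotation of GRCm38, Acta2 lies at chr19:34241090-34255590, Tagln at chr9:45929619-45936058, Tpm1 at chr9:67022590-67049406, Tpm2 at chr4:43514711-43523765, Myh11 at chr16:14194535-14291372 and Actg2 at chr6:83512905-83536265, all on the minus strand. Cnn1 at chr9:22099216-22109630, Myl9 at chr2:156775420-156781658, Cald1 at chr6:34598500-34775473 and Mylk at chr16:34745210-35002420 lie on the plus strand. Tagln overlaps Pcsk7 and Gm48529 on the opposite strand, and Cald1 and Mylk each overlap opposite-strand genes, so that part of their UMIs could be lost or shared if the counting ignored strand, which is not stated in the sources used here.

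Mural cells held the highest level of every contractile gene in the control library, although for Cnn1, at 7.50 CPM on 13 UMIs, the interval met that of Schwann-like cells. Acta2 stood at 2974 CPM in control mural cells and 257 CPM in control fibroblasts, and at 1238 and 198 CPM in the SM22-SmoM2 library. In endothelial-like cells Acta2 was at 41.7 and 10.2 CPM and in Schwann-like cells at 20.6 and 20.8 CPM, for control and SM22-SmoM2, so that fibroblasts lay well above these lineages in both libraries. The order of lineages was thus mural, fibroblast and then the rest, among which endothelial and immune in the control, and Schwann-like and either neighbour in SM22-SmoM2, had overlapping intervals.

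Myh11, the smooth-muscle myosin, was far higher in mural cells than in any other lineage. It was at 253 CPM in control mural cells, at 109 CPM in SM22-SmoM2 mural cells and at 0.80 and 0.40 CPM in the fibroblasts of the respective libraries, where it rested on 11 and 5 UMIs. Schwann-like control cells, which should lack it, showed 2.34 CPM, so no Myh11 above that background was detectable in fibroblasts. With each cell thinned to 2500 UMIs, Myh11 was detected in 39.4% of control mural cells and in 0.287% of control fibroblasts, against 0.444% of control Schwann-like cells (medians of 5405, 12704 and 5959.5 UMIs per cell before thinning). Actg2, the actin typical of gut smooth muscle, was at 111 CPM in control mural cells and 16.2 CPM in control fibroblasts.

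Other members were spread more widely. Cald1 was at 2398 CPM in control mural cells, 609 CPM in fibroblasts, 546 CPM in Schwann-like and 286 CPM in endothelial-like cells. Tpm1 was at 303 CPM in control fibroblasts and at 359 CPM in Schwann-like cells, which thus exceeded the fibroblasts. Tpm2 was at 304 CPM in control fibroblasts, 36.6 CPM in Schwann-like and 11.9 CPM in endothelial-like cells. Mylk was higher in control endothelial-like cells, at 76.7 CPM, than in fibroblasts, at 46.3 CPM. The tropomyosins therefore ranked the lineages differently: Tpm2, like Acta2, stood well above the rest in fibroblasts, whereas Tpm1 did not.

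**Figure D1:**
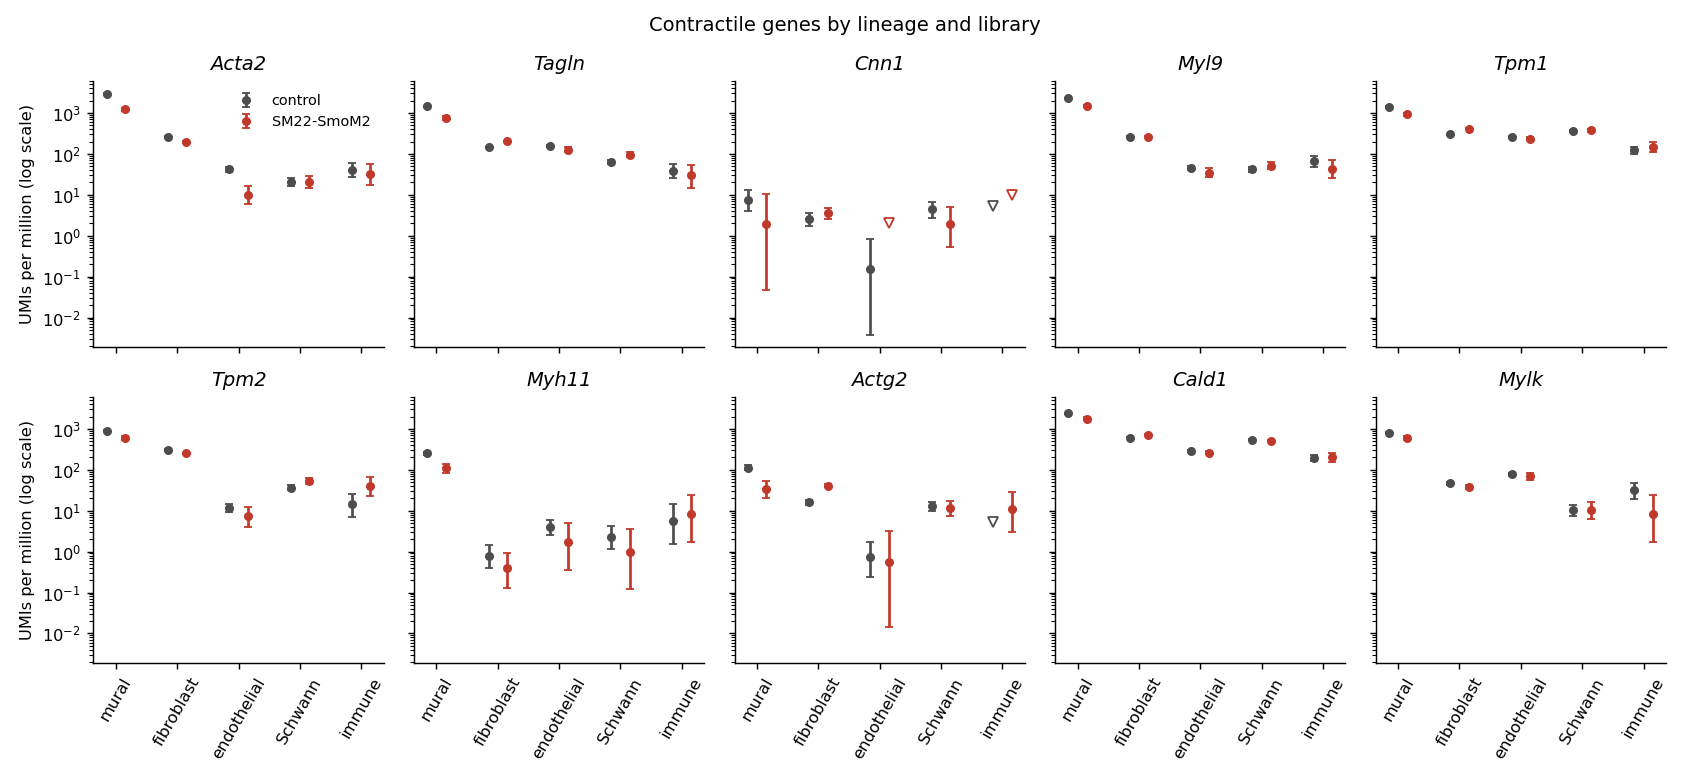
Level of each contractile gene in CPM (log axis) in 5 lineages of the control (grey) and SM22-SmoM2 (red) library. Points are CPM of summed UMIs, bars are 95% Poisson intervals (counting error only), and open triangles mark the upper limit where no UMI was counted. Mural cells are highest for all 10 genes in the control, for 9 of them beyond the intervals, and Myh11 in fibroblasts is below 1 CPM in both libraries.

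The lineages that supplied the contractile UMIs also differed between the libraries. Mural cells supplied 50.2% of the Acta2 UMIs of the control library and fibroblasts 34.4%, whereas in the SM22-SmoM2 library mural cells supplied 18.9% and fibroblasts 72.2%. For all 10 genes together, fibroblasts supplied 39.9% of the control UMIs and 73.6% of those of SM22-SmoM2. Of the UMIs of all genes, fibroblasts supplied 45.7% and 70.0% and mural cells 5.76% and 2.94%, in the control and SM22-SmoM2. The fibroblast share of the 10 genes thus lay near its share of all UMIs in both libraries. Myh11 remained a mural transcript in both, with 69.8% and 60.6% of its UMIs in mural cells. Fewer mural cells and less RNA per cell cannot be told apart in such shares, and the sort that set the numbers of cells was not replicated.

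The promoter of Tagln selected the cells, so its level outside mural cells and fibroblasts is given beside theirs. It was at 1452 CPM in control mural cells, 143 CPM in fibroblasts, 155 CPM in endothelial-like cells and 62.3 CPM in Schwann-like cells, and in the SM22-SmoM2 library at 746, 201, 126 and 96.1 CPM. In immune-like cells Tagln was at 38.6 and 30.1 CPM in control and SM22-SmoM2. At 2500 UMIs per cell, 21.5% of control endothelial-like cells and 9.32% of Schwann-like cells had a Tagln UMI, while 4.61% and 2.07% had an Acta2 UMI. Tagln and Acta2 were also set against Rgs5 of mural cells and Col1a1 of fibroblasts. Tagln stood at 16.8 UMIs per 100 Rgs5 UMIs in control mural cells but at 135 per 100 in endothelial-like and 61.8 per 100 in Schwann-like cells, and against the fibroblast transcript Col1a1 at 6.21 per 1000 in fibroblasts but 517 and 22.7 per 1000 in these lineages. Acta2, at 34.4 per 100 Rgs5 UMIs in control mural cells, was at 36.3 per 100 in endothelial-like and 20.5 per 100 in Schwann-like cells. Against Col1a1, Acta2 was at 11.2 per 1000 in control fibroblasts, 139 in endothelial-like and 7.50 in Schwann-like cells. Thus Tagln exceeded the ratio of mural cells and of fibroblasts in both lineages of the control. Acta2 was below both ratios in Schwann-like cells. In endothelial-like cells Acta2 was near the mural ratio and above that of fibroblasts. Where the UMIs outside mural cells and fibroblasts came from was not tested.

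The comparison of SM22-SmoM2 with control fibroblasts asks what the contractile genes do when Hh signaling is kept on in cells of the wound dermis. The set did not move as a block. Actg2 had the largest difference and was higher in SM22-SmoM2. Tagln, Tpm1 and Cald1 were higher by less, Acta2, Tpm2 and Mylk were lower, and Myl9 was level. The 10 genes together were at 1949 CPM in the control fibroblasts and 2123 CPM in the SM22-SmoM2 ones, a log2 ratio of 0.12 (0.10 to 0.15).

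Actg2 was at 16.2 CPM (14.2 to 18.5) in control fibroblasts and at 40.9 CPM (37.4 to 44.6) in SM22-SmoM2 fibroblasts, 2.52-fold higher. The share of fibroblasts with an Actg2 UMI at 2500 UMIs per cell was 3.06% (2.10 to 4.30%) and 7.83% (6.31 to 9.58%, exact binomial), against 2.37% and 3.06% in Schwann-like cells, so that the control share was close to that of a lineage outside muscle and the SM22-SmoM2 share was above it. Before thinning, 8.13% and 19.1% of fibroblasts had an Actg2 UMI. Acta2, the other smooth-muscle actin, ran the opposite way, from 257 CPM (249 to 266) to 198 CPM (191 to 206), a log2 ratio of -0.38 (-0.45 to -0.30).

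Tagln was at 143 CPM (137 to 150) in the control and 201 CPM (193 to 209) in SM22-SmoM2, a log2 ratio of 0.49. Tpm1 was at 303 and 407 CPM (log2 ratio 0.42), whereas Tpm2 was at 304 and 253 CPM (-0.27). The tropomyosins thus moved in opposite directions, each beyond its counting interval. Cald1 was at 609 and 720 CPM (0.24) and Mylk at 46.3 and 37.8 CPM (-0.29). Myl9 was at 265 and 261 CPM, with an interval of the log2 ratio of -0.09 to 0.05. Cnn1, with 35 and 45 UMIs, had an interval of -0.17 to 1.18, and Myh11, with 16 UMIs in all, is left out of the counts.

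Counting as called a gene that differed at least 1.5-fold, 1 of the 9 members with at least 20 UMIs was higher (Actg2) and 0 were lower. Of all 12997 genes with that many UMIs in these fibroblasts, 13.8% were called higher and 13.7% lower, so neither count was far from the share of other genes. The median log2 ratio was 0.24 over the 9 members and -0.06 over all genes. In the SM22-SmoM2 fibroblasts the summed mural markers were at 280 CPM and in the control ones at 204 CPM, with all 12 detected in both. The 9 fibroblast markers summed to 18514.6 CPM in the SM22-SmoM2 and 33678.5 CPM in the control fibroblasts, so these classes need not compare like cells. The part of either marker list in the differences was not tested. Myh11 was near 0 in both.

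**Figure D2:**
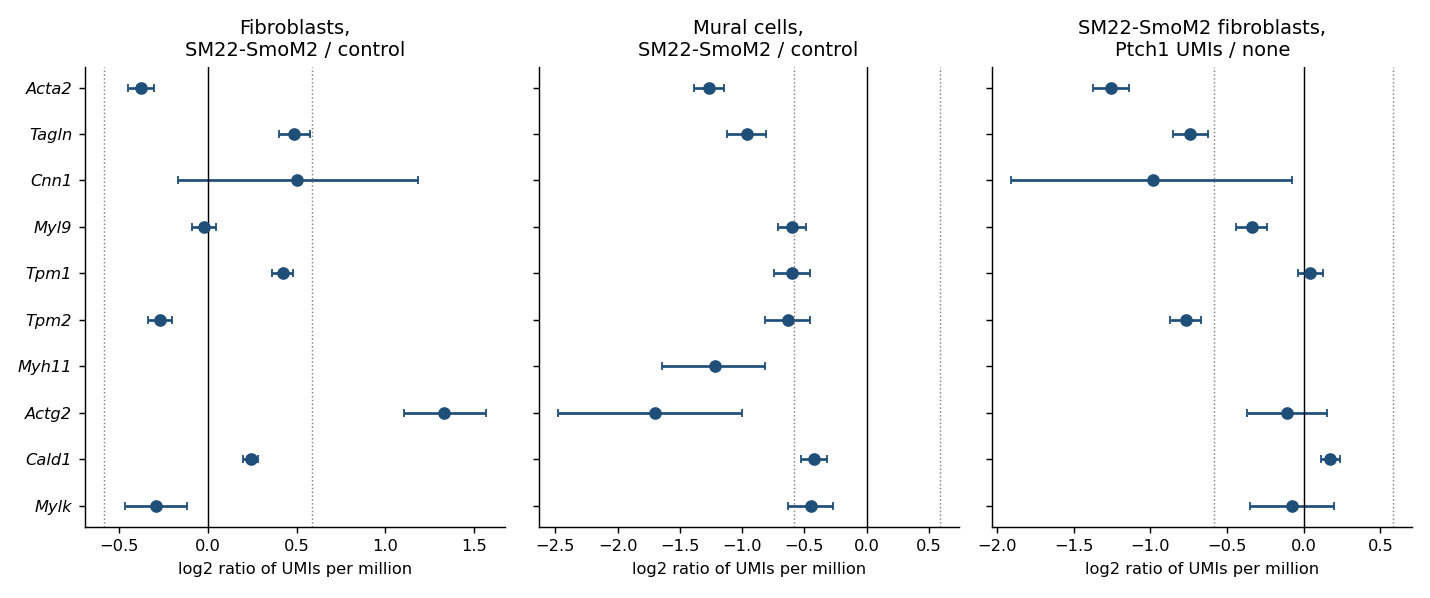
Log2 ratio of CPM with its 95% counting interval for SM22-SmoM2 over control in fibroblasts (left) and mural cells (middle), and for SM22-SmoM2 fibroblasts with over without Ptch1 UMIs (right). Dotted lines mark 1.5-fold, and members with fewer than 20 UMIs over both groups have no point. In fibroblasts only Actg2 passes 1.5-fold, in mural cells every plotted member is below 0, and with Ptch1 UMIs Acta2 is lowest.

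The contractile genes were unevenly spread over fibroblasts. In the control, 105 of 1045 cells, the tenth of cells with the most, held 69.9% of the Acta2 UMIs at 2500 UMIs per cell and 75.3% of the Tagln UMIs, against 29.1% of the Cald1 UMIs. K-means on fibroblasts, again without the contractile genes, gave sub-clusters that are named here by their 2 leading genes, which are labels and not results. A sub-cluster led by Crabp1 and Mmp11 was the highest in Acta2, Tagln, Tpm2 and Myl9 in both libraries. There Acta2 was at 459 CPM in control cells and 683 CPM in SM22-SmoM2 cells, Tagln at 377 and 601 CPM, and Tpm2 at 492 and 640 CPM. It held 27.3% of control fibroblasts and 46.2% of their Acta2 UMIs, and 10.7% of SM22-SmoM2 fibroblasts and 39.4% of their Acta2 UMIs.

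At the other end, the control sub-cluster led by Cst6 and Trf (62 cells) had Acta2 at 5.83 CPM and Tagln at 2.92 CPM, although Tpm1 there was at 379 CPM and Cald1 at 404 CPM. Actg2 was highest in the Crabp1 Mmp11 sub-cluster in the control, as Acta2 was, at 41.3 CPM, but not in SM22-SmoM2. It was at 92.5 CPM in the SM22-SmoM2 sub-cluster led by Ifitm1 and Egfl6, 70.1 CPM in that led by Egfl6 and Fam212a, 70.6 CPM in the Crabp1 Mmp11 and 68.9 CPM in the cycling Gm26870 Ube2c sub-cluster of that library. Tpm1 was highest in the Egfl6 Fam212a sub-cluster, at 633 CPM. Several sub-clusters came almost wholly from 1 library (Egfl6 Fam212a with 1 control and 151 SM22-SmoM2 cells, Areg Srxn1 with 7 and 201, Tslp Cxcl2 with 109 and 0) and may reflect that library rather than a type of cell.

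**Figure D3:**
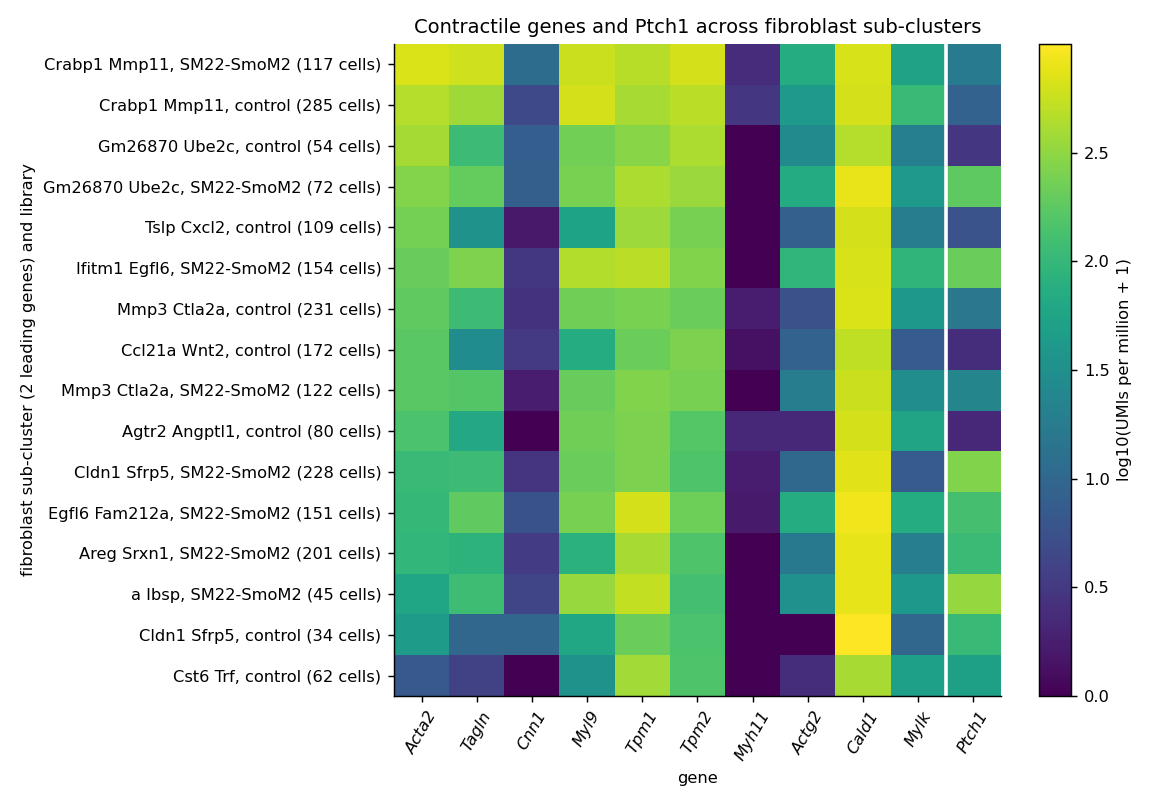
Level of the contractile genes and Ptch1, as log10 of CPM plus 1, in 16 groups of fibroblasts (sub-cluster by library, at least 20 cells each), ordered by Acta2. The Crabp1 Mmp11 groups lead in Acta2 and Tagln with Ptch1 at 7.87 and 16.8 CPM, while Cald1 stays between 404 and 999 CPM in all rows.

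Within the 5 sub-clusters that both libraries entered with 10 cells or more, the libraries differed otherwise than in the pool. Tagln was higher in SM22-SmoM2 in 5 of 5 sub-clusters, with log2 ratios of 0.49 to 3.65 and all intervals above 0. Tpm1 was also higher in 5 of 5, from 0.12 to 0.73, with 3 intervals above 0. Actg2 was higher in each of the 4 sub-clusters in which it had UMIs in both libraries (0.77 to 3.16). The highest ratio, in Ifitm1 Egfl6, rested on 1 Actg2 UMI in 10 control cells (interval 0.65 to 8.47). Acta2, lower in the pool, was higher in 3 of 5, among them Crabp1 Mmp11 (0.57, 0.46 to 0.69), and lower in the cycling sub-cluster (-0.54, -0.76 to -0.31). Averaged over the 4 of them in which both libraries had 20 cells or more, the Acta2 ratio was 0.29 where the pooled ratio was -0.38, and that of Tagln 1.40 where the pooled one was 0.49. Both means rested on the Cldn1 Sfrp5 sub-cluster, with 34 control cells that held 15 Acta2 and 3 Tagln UMIs (1.24 and 3.65). Without it they were -0.03 for Acta2 and 0.65 for Tagln. Where a sub-cluster came mostly from 1 library, its own genes and the genotype cannot be told apart.

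Across these 16 groups of fibroblasts the members fell into a tight and a loose part. The Pearson correlation of log2(CPM + 10) was 0.92 between Tagln and Myl9, 0.85 between Acta2 and Tpm2 and 0.75 between Acta2 and Tagln, but 0.07 between Acta2 and Tpm1 and 0.01 between Acta2 and Cald1. Actg2 followed Tagln (0.82) and Tpm1 (0.77) more than Acta2 (0.53). Among 5031 genes with at least 50 CPM in a group, those most like Acta2 were Col12a1 (0.91), Pdgfc (0.90), Fbln5 (0.90), Lrrc15 (0.89) and Me1 (0.87). Those most like Tagln were Fabp5 (0.92), Cnn2 (0.90), Gm1673 (0.90), Megf6 (0.88) and Fstl3 (0.87). The 16 groups come from only 2 libraries and share their depth, so these values describe the groups and carry no test.

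Mural cells gave the more uniform result. All 9 members with at least 20 UMIs were lower in SM22-SmoM2 mural cells, and the 10 genes together were at 12567 CPM in the control and 7502 CPM in SM22-SmoM2, 1.68-fold lower. Acta2 was at 2974 CPM (2893 to 3056) and 1238 CPM (1144 to 1337), 2.40-fold lower. Myh11 was at 253 CPM (230 to 278) and 109 CPM (82.3 to 141), 2.33-fold lower, and Actg2 at 111 CPM (96.2 to 128) and 34.3 CPM (20.3 to 54.3), 3.24-fold lower on 193 and 18 UMIs. Tagln was at 1452 and 746 CPM, 1.95-fold lower.

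The remaining members differed less. Tpm2 was at 910 and 585 CPM and Myl9 at 2262 and 1491 CPM, for log2 ratios of -0.64 and -0.60, and Tpm1 at 1396 and 923 CPM (-0.60), the last pair just past 1.5-fold. Mylk, at 803 and 587 CPM (-0.45), and Cald1, at 2398 and 1787 CPM (-0.42), stayed within it. In all, 7 of 9 members were at least 1.5-fold lower where 16.5% of the 8465 genes measured in these cells were, and 0 were higher where 7.89% of genes were. The median log2 ratio was -0.64 over the members and -0.09 over all genes. Cnn1 had 13 and 1 UMIs.

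The summed lineage markers of the mural cells were close between the libraries. The 12 mural markers summed to 14910 and 14592 CPM, and the 9 fibroblast markers to 4467 and 4218 CPM. The SM22-SmoM2 mural cells were fewer and shallower, with a median of 4314 against 5405 UMIs per cell. At 2500 UMIs per cell the share with an Acta2 UMI was 83.4% (78.3 to 87.7%) in the control and 57.0% (46.3 to 67.2%) in SM22-SmoM2, against 2.07% and 0.680% in Schwann-like cells. Before thinning it was 87.3% and 62.4%. The median cell had Acta2 at 1503 CPM in the control and 316 CPM in SM22-SmoM2, while the tenth of cells with the most held 39.3% and 60.6% of the Acta2 UMIs. Acta2 was thus held by fewer of the SM22-SmoM2 mural cells. Ptch1, the Hh receptor and target, had 14 UMIs in the control mural cells and 15 in the SM22-SmoM2 ones, at 8.07 CPM (4.42 to 13.5) and 28.6 CPM (16.0 to 47.2).

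Within the 3 mural sub-clusters the direction was the same. Acta2 was lower in SM22-SmoM2 in all 3, with log2 ratios of -1.22 in the Qpct Tppp3, -1.69 in the Icam1 Il6 and -0.41 in the Tesc Nrip2 sub-cluster. Tagln ranged from -1.25 to -0.55 and Tpm1 from -0.91 to -0.46, with all 3 intervals below 0 for each. Myl9, at 3002 and 2813 CPM in the Tesc Nrip2 cells, which had the most Myh11 and Mylk, had an interval of the log2 ratio of -0.32 to 0.13, and those of Cald1, Mylk and Actg2 there also included 0. That sub-cluster had 12 SM22-SmoM2 cells. Rgs5 was higher in SM22-SmoM2 in the Qpct Tppp3 sub-cluster, at 9602 against 7766 CPM, and lower in the Icam1 Il6 one, at 6422 against 7795 CPM. In the Tesc Nrip2 one it was lower by little (-0.11, -0.22 to -0.001). Rgs5 thus ran opposite to the contractile genes in the Qpct Tppp3 sub-cluster alone. In the Icam1 Il6 and Tesc Nrip2 ones it was lower by less than the 10 genes together (-0.90 and -0.37). The higher pooled Ptch1 level of SM22-SmoM2 mural cells came from the Icam1 Il6 sub-cluster, with 13 UMIs against 2 in the control. In SM22-SmoM2 and control, the Qpct Tppp3 cells had 0 and 9 Ptch1 UMIs and the Tesc Nrip2 cells 2 and 3. The size of the difference in the contractile genes depended on which cells were called mural. With K = 30 in place of K = 20 for the lineage clusters, the sum had a log2 ratio of -1.18 in place of -0.74. The SM22-SmoM2 class then held 141 cells in place of 93, while the control class stayed at 259. With cells over 5% mitochondrial UMIs left out, the ratio was -1.29, on 121 SM22-SmoM2 and 183 control cells. Which cells joined the SM22-SmoM2 class was not examined, so these ratios need not compare like cells.

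**Figure D4:**
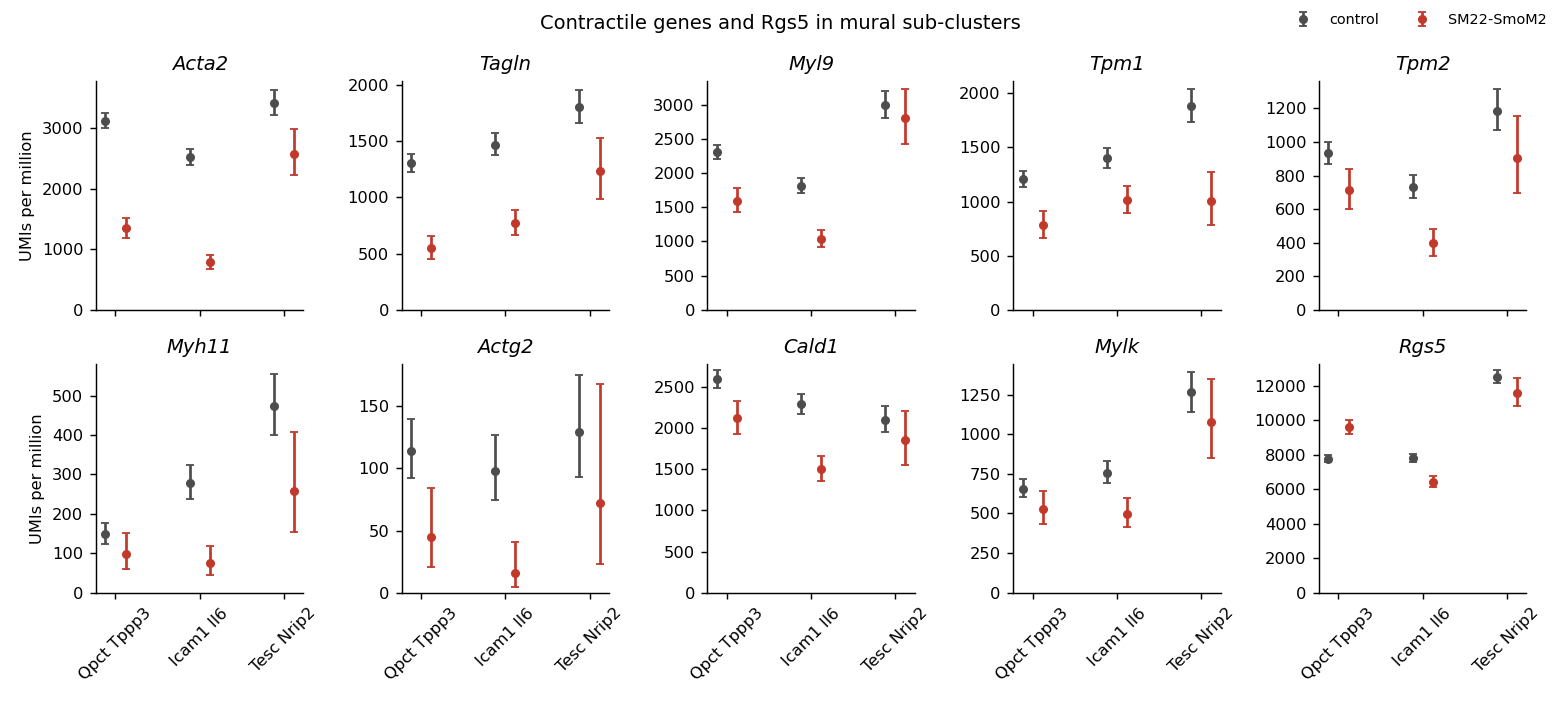
Level in CPM of 9 contractile genes and of Rgs5 in 3 mural sub-clusters of the control (grey) and SM22-SmoM2 (red) library, with 95% Poisson intervals (counting error only). Each contractile gene is lower in SM22-SmoM2 in each sub-cluster, while Rgs5 is higher in 1 and lower in the others.

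Fibroblasts of the SM22-SmoM2 library were next split by Ptch1, whose transcript reports an active Hh response. A Ptch1 UMI was found in 640 of 1098 SM22-SmoM2 fibroblasts (58.3%) and in 105 of 1045 control fibroblasts (10.0%), and at 2500 UMIs per cell in 29.96% and 3.64%, against 4.76% and 2.81% in Schwann-like cells of SM22-SmoM2 and control. Cells without a UMI may have lacked it for want of depth, with medians of 10218 UMIs in cells without and 11298 in cells with a Ptch1 UMI.

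Acta2 was at 308 CPM (293 to 324) in SM22-SmoM2 fibroblasts without and 129 CPM in those with Ptch1 UMIs, 2.39-fold lower with them, while control fibroblasts were at 257 CPM. By the number of Ptch1 UMIs it was at 308 CPM at 0, 171 CPM at 1, 118 CPM at 2, 125 CPM at 3 and 98.9 CPM at 4 or more, where neighbours from 2 UMIs on had overlapping intervals. Tagln was at 266 and 160 CPM and Tpm2 at 339 and 198 CPM for cells without and with Ptch1 UMIs, with log2 ratios of -0.74 and -0.77. Both were lower at 1 Ptch1 UMI than at 0, and from 1 UMI on ranged from 144 to 169 CPM for Tagln and from 168 to 238 CPM for Tpm2. Cnn1 was at 5.17 and 2.62 CPM on 25 and 20 UMIs.

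Myl9 was lower by less, at 300 and 237 CPM (-0.34, -0.44 to -0.24). The other members were not lower beyond their counting intervals, with Tpm1 at 400 and 411 CPM (interval -0.04 to 0.12), Actg2 at 42.8 and 39.6 CPM (-0.37 to 0.15), Mylk at 39.1 and 37.0 CPM (-0.35 to 0.20) and Cald1 at 668 and 753 CPM (0.17, 0.11 to 0.24). Of the 9 members with at least 20 UMIs, 4 were at least 1.5-fold lower with Ptch1 UMIs (Acta2, Tagln, Cnn1 and Tpm2) where 6.69% of 11785 genes were, and 0 were higher where 14.7% were. The median log2 ratio was -0.34 over the members and 0.14 over all genes. In the control the same split of 105 and 940 cells gave Acta2 at 195 and 265 CPM (-0.44), Tagln at 99.8 and 148 CPM (-0.57), Myl9 at 182 and 275 CPM (-0.59) and Tpm2 at 216 and 315 CPM (-0.54), with Tpm1 and Cald1 at 0.07 and 0.26, so 1 member, Myl9, was called lower where 11.1% of genes were, and 0 were called higher where 11.9% were.

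The SM22-SmoM2 fibroblasts on each side of the Ptch1 split were also set against all control fibroblasts, which both comparisons share. Acta2 had a log2 ratio of 0.26 (0.17 to 0.35) in cells without and -0.997 (-1.10 to -0.89) in cells with Ptch1 UMIs. Tagln had 0.89 and 0.16 (0.05 to 0.26), and Tpm2 0.15 and -0.62. Acta2 and Tpm2 thus stood above the control only where Ptch1 was not found, and Tagln on both sides, by less with Ptch1 UMIs. Actg2, at 1.40 and 1.29, and Tpm1, at 0.40 and 0.44, were also above the control on both sides. Without Ptch1 UMIs, 3 members were called higher (Tagln, Cnn1 and Actg2) where 9.15% of genes were, and 0 lower where 16.4% were. With Ptch1 UMIs, 1 was called higher (Actg2) where 16.5% of genes were, and 2 lower (Acta2 and Tpm2) where 15.8% were.

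**Figure D5:**
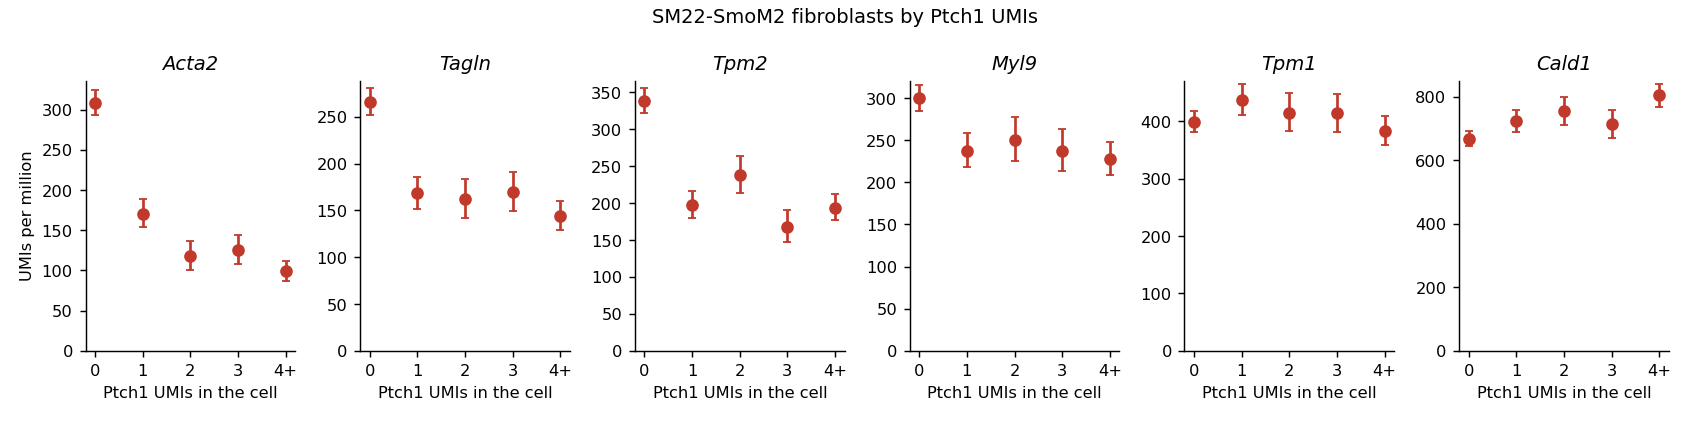
Level in CPM of 6 contractile genes in SM22-SmoM2 fibroblasts by the number of Ptch1 UMIs in the cell (0 to 4 or more), with 95% Poisson intervals (counting error only) and each axis starting at 0. Acta2 goes from 308 to 98.9 CPM, Tagln and Tpm2 are lower at 1 UMI than at 0, and Tpm1 and Cald1 do not fall below 383 and 668 CPM.

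The split by Ptch1 was also a split by sub-cluster. Ptch1 was at 16.8 CPM in the Crabp1 Mmp11 and 22.2 CPM in the Mmp3 Ctla2a sub-cluster of the SM22-SmoM2 library, and between 111 and 336 CPM in the other 6. Within the 6 sub-clusters in which each side had 20 cells or more, Acta2 was lower with Ptch1 UMIs in 4 and higher in 2, with log2 ratios of -0.75 to 0.65 and an interval that left out 0 only in Areg Srxn1. Tagln was higher in 4 of the 6. Without the Crabp1 Mmp11 sub-cluster the Acta2 ratio was -0.20 in place of -1.26 and that of Tagln was 0.13 in place of -0.74. That sub-cluster has 117 SM22-SmoM2 cells. Across the 8 SM22-SmoM2 sub-clusters of at least 20 cells the correlation with Ptch1 was -0.66 for Acta2, -0.56 for Tagln, 0.17 for Tpm1 and 0.61 for Cald1, which describes 8 points of 1 library.

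The members were also set against the nonmuscle or sister genes of their families, which take the same place in the filament. Acta2 made up 31.5% of the UMIs of 4 actins (Acta2, Actg2, Actb and Actg1) in control mural cells and 17.1% in SM22-SmoM2 ones, and 3.62% and 2.93% in fibroblasts. Actg2 made up 0.228% and 0.603% of the actin UMIs of fibroblasts. Tagln took 17.7% of the Tagln and Tagln2 UMIs in control and 29.4% in SM22-SmoM2 fibroblasts, but 75.1% and 64.5% in mural cells. Among 4 tropomyosins Tpm1 took 22.0% in control and 31.5% in SM22-SmoM2 fibroblasts, and Tpm2 22.1% and 19.6%. Myl9 took 57.1% and 48.6% of the UMIs of 3 regulatory light chains in mural cells and 15.1% and 16.9% in fibroblasts. The muscle-type share was thus lower in the SM22-SmoM2 mural cells for Acta2, Tagln and Myl9, beyond their counting intervals. Actin genes have near-identical coding sequences, and how reads that map to several genes were treated beyond keeping confidently mapped ones is not stated.

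Around the members, further lists were read, the first being 25 smooth-muscle type partners. Here too a gene counts as measured with 20 UMIs and as higher or lower from 1.5-fold on. Of all genes, 13.8% were higher and 13.7% lower in SM22-SmoM2 fibroblasts, and 7.89% and 16.5% in mural cells, against which the counts of each list are to be read. Of the 21 partners measured in fibroblasts, 2 were higher in SM22-SmoM2 and 7 lower. Casq2, the calcium store protein calsequestrin, was at 1.31 CPM in the control and 17.7 CPM in SM22-SmoM2 fibroblasts (log2 ratio 3.76, 3.06 to 4.54), and Pdlim3, which binds actinin, was at 2.33 and 14.4 CPM (2.63). Sorbs2 was at 3.20 and 1.12 CPM. In mural cells 10 of 22 of these partners were lower, among them Smtn and Lmod1, and 0 higher, against 16.5% and 7.89% of all genes. None of the 12 nonmuscle counterparts was past 1.5-fold in fibroblasts, nor any of the 11 measured in mural cells, at medians of -0.06 and -0.16. Of the 10 striated counterparts 2 were measured in fibroblasts, and Tnnt3 was at 2.91 and 5.13 CPM.

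The regulators of contractile gene expression and the adhesion genes were mixed. A list of SRF pathway regulators, which also holds genes of other pathways such as Smad7, had 9 measured genes. Of these, 3 were higher and 0 lower in SM22-SmoM2 fibroblasts, where 13.8% and 13.7% of all genes were. Srf itself was at 14.3 and 23.1 CPM (0.69) and its cofactor Mkl2 at 19.9 and 35.5 CPM (0.84). Smad7, an inhibitor of transforming growth factor beta signaling, was at 56.2 and 93.9 CPM (0.74). Of 7 measured in mural cells none was past 1.5-fold. Of 16 focal adhesion genes 2 were higher and 3 lower in fibroblasts, near the shares of all genes, with Zyx at 145 and 67.1 CPM, the integrin Itga8 at 2.11 and 4.33 CPM and Itga11 at 40.8 and 22.3 CPM.

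The matrix genes of myofibroblasts were largely lower in the pool of SM22-SmoM2 fibroblasts. Of 18, 10 were at least 1.5-fold lower and 2 higher in SM22-SmoM2 fibroblasts, where 13.7% and 13.8% of all genes were, with a median log2 ratio of -0.62. Fn1 (fibronectin) was at 1417 CPM in the control and 495 CPM in SM22-SmoM2 fibroblasts, Cthrc1 at 3260 and 1296 CPM, and Postn (periostin) at 4245 and 1911 CPM. With Ptch1 UMIs 12 of 18 were lower and 0 higher within the SM22-SmoM2 library, where 6.69% and 14.7% of all genes were. Against all control fibroblasts, 3 were lower and 2 higher in SM22-SmoM2 cells without Ptch1 UMIs, where 16.4% and 9.15% of all genes were. In those with Ptch1 UMIs 13 were lower and 1 higher, where 15.8% and 16.5% were. The Ptch1 split was also a split by sub-cluster, and the libraries differed in their sub-clusters. This list as a whole was not read within them, so neither result can be told apart from the mix of sub-clusters. Col1a1 alone was, with log2 ratios of -0.71 in Cldn1 Sfrp5 to 0.33 in Ifitm1 Egfl6. In mural cells 4 were higher and 1 lower, where 7.89% and 16.5% of all genes were. As a check of the genotype, the Hh targets Hhip, at 0.65 and 35.3 CPM, and Ptch1, at 12.3 and 147 CPM, were higher in SM22-SmoM2 fibroblasts.

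In the lineages outside fibroblasts and mural cells, 8 members had at least 20 UMIs in endothelial-like cells. All 8 were lower in SM22-SmoM2 there, 3 of them (Acta2, Tpm2 and Myh11) at least 1.5-fold where 11.3% of genes were. No member was called higher, where 5.17% of genes were. Only the intervals of Acta2 (-2.82 to -1.35) and Tagln (-0.52 to -0.09) lay below 0. Those of the other members, Tpm2 (13 and 79 UMIs) and Myh11 (3 and 26 UMIs) among them, included 0. In Schwann-like cells 1 of 9 was called higher (Tagln) and 1 lower (Cnn1, on 21 and 4 UMIs), where 6.55% and 10.7% of genes were. Tagln there was at 62.3 and 96.1 CPM, a log2 ratio of 0.63 (0.36 to 0.89) beside 0.49 in fibroblasts. Tpm2 was also higher there (0.55, 0.19 to 0.90), and the intervals of the other members included 0. In the mixed mural and endothelial cluster all 9 were lower, with Acta2 at 478 and 297 CPM. There, 4 were at least 1.5-fold lower where 13.2% of genes were, and 0 were called higher where 6.7% were. The intervals of Myl9, Tpm1 and Cald1 in that cluster included 0. In the immune-like cells, of which the SM22-SmoM2 library had 33, 1 of 7 members was called higher and 2 lower, where 12.4% and 21.5% of genes were.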

How the data were processed

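The authors demultiplexed the 10x Chromium 3' v2 libraries with bcl2fastq, aligned them to mm10 with Cell Ranger and deposited whole UMI counts per gene and cell, not normalized. The tool versions, the annotation release and the strand counted are not given in the sources used here. How many cell barcodes the libraries share could not be counted, since the barcode list is that of the whole kit.

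Cells over 10% mitochondrial UMIs or under 200 genes were dropped (22 control, 10 SM22-SmoM2). Log counts per 10000 of the 2000 most variable genes, less the 119 listed contractile and Hh genes, gave 20 principal components for K-means (scikit-learn 1.9.0, 50 starts) at K = 20, then 15 within fibroblasts and 4 within mural cells. Lineages were named from at least 3 markers, each at 10 CPM or more and raised 1.5-fold over the median cluster. Sub-clusters led by markers of another lineage were set aside (65 fibroblast and 15 mural cells). Scrublet in scanpy 1.11.5 marked 6 and 10 doublets, which were kept.

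UMIs were summed by class and library. The 95% intervals (scipy 1.17.1) are Poisson for CPM, conditional binomial for ratios and Clopper-Pearson for shares, all exact, and the code was tested on simulated data. The background is every gene with 20 UMIs over both groups. All members are named. Of each wider list, up to 3 genes with the largest ratio in fibroblasts (50 UMIs, 1.5-fold) are named, besides Smtn and Lmod1, which were named after their values were seen, and the 5 genes most like Acta2 and Tagln. Some results of the wider lists are not reported here. The members and lists were chosen with earlier results of these data known. Alternatives covered filters, doublets, clustering, thinning, per-cell means, male cells alone and the Ptch1 split.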

Additional observations from a re-analysis of the deposited data

Results flagged for a closer look

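Tagln, Tpm1, Actg2 and Cald1 were higher in SM22-SmoM2 than in control fibroblasts and lower in SM22-SmoM2 than in control mural cells, with both counting intervals on their own side of 0. The fibroblast minus mural difference of the log2 ratios was 3.03 for Actg2, 1.45 for Tagln, 1.02 for Tpm1 and 0.67 for Cald1. Higher Tagln was not particular to fibroblasts: its log2 ratio was 0.63 (0.36 to 0.89) in Schwann-like cells, and -0.30 (-0.52 to -0.09) in endothelial-like cells. With 1 library per genotype the difference between the lineages was not tested.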

How the results depend on the processing

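Of 79 alternatives for the sums and counts of members, 53 stayed within the counting interval or within 1.5 times the count, and 26 moved. The mural sum kept its sign in all 13 alternatives (reported log2 ratio -0.74). It was -0.65 with thinned cells and as the mean within sub-clusters, -0.63 as the mean of per-cell CPM, -1.07 in male cells, -0.68 with Leiden lineages, -1.18 with K = 30 and -1.29 with a 5% mitochondrial filter. Under the last pair the SM22-SmoM2 mural class held 141 and 121 cells, against 93 as reported. The control class held 259 and 183, against 259. Which cells joined the SM22-SmoM2 class was not examined, so the last pair need not compare like cells. The fibroblast sum (0.12) kept its sign in all 16. It was 0.15 as the mean of per-cell CPM, 0.19 in male cells, 0.33 without the Crabp1 Mmp11 sub-cluster, 0.17 as the mean within sub-clusters without Cldn1 Sfrp5, 0.079 and 0.085 with a 5% and no mitochondrial filter and 0.033 with Leiden lineages. With the 5% filter, no filter and Leiden lineages, the SM22-SmoM2 fibroblast class held 848, 932 and 791 cells, against 1098 as reported. The control class held 1004, 1054 and 825, against 1045. Which cells joined or left was not examined, so these sums, and those by Ptch1 UMIs under the same settings, need not compare like cells. The sum by Ptch1 UMIs (-0.27) was -0.22 as the mean of per-cell CPM, -0.21 without the 1% of cells highest in the members, -0.19 when split by Gli1, -0.36 and -0.34 with a 5% and no mitochondrial filter and -0.18 with Leiden lineages, and changed sign to 0.10 without the Crabp1 Mmp11 sub-cluster and 0.089 as the mean within sub-clusters. In fibroblasts, 3 members were called higher in male cells and without the Crabp1 Mmp11 sub-cluster and 2 as the mean within sub-clusters without Cldn1 Sfrp5, against 1, and 1 was called lower with mixed sub-clusters kept, against 0.

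Of 443 alternatives for single genes, 335 stayed within the counting interval, 105 moved and 3 turned the sign of a ratio that had been past 1.5-fold. Tagln by Ptch1 UMIs was 0.13 without the Crabp1 Mmp11 sub-cluster and 0.20 as the mean within sub-clusters, and Myh11 in fibroblasts was 0.19 in male cells. Acta2 in fibroblasts (-0.38) was 0.29 as the mean within sub-clusters, -0.03 when that mean left out Cldn1 Sfrp5, and below 0 in its other alternatives. Leaving out the Crabp1 Mmp11 or the Cldn1 Sfrp5 sub-cluster, keeping mixed sub-clusters and averaging within sub-clusters were chosen after seeing the data. Apart from these, the cause was not tested. No paired analysis was possible because each group had 1 library, and none could be left out. Counts of under 20 UMIs, as for Cnn1 and Myh11, limit what can be seen of these genes.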
